A study of Mus musculus with 16 samples.

Results

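Named H/ACA small nucleolar RNAs (snoRNAs) encoded outside ribosomal protein genes were followed through 8 blood cell populations of mouse bone marrow. Of 1885 small RNA intervals counted in the libraries, 23 met the rule and 21 of these had enough reads to be tested. An interval was taken when its coordinates equalled those of a GENCODE M21 gene (mouse genome build GRCm38) whose name starts with Snora. Left out were 5 intervals by name (the Snora43, Snora31 and Snora73 genes) and 13 because they lie, on the same strand, inside a ribosomal protein gene or one of the hosts Gas5, Snhg1, Nop56, Nop58, Eif4a2, Gnl3, Zfas1 and Ncl. The rule is worded in names and positions and holds no measured value, but it was set with earlier results of these data known. Snora15 and Snora19 were not tested, with 68 and 18 counts over all libraries.

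The cells came from wild-type mice and were sorted by flow cytometry, with 2 libraries for each population and 16 in all. The progenitors were labelled CLP (common lymphoid progenitor), CMP (common myeloid progenitor), GMP (which gives granulocytes and monocytes) and MEP (which gives megakaryocytes and erythroid cells), and the mature cells B, T, Myeloid (spelled Myloid in the labels) and Erythroid. The labels list a mixture of lineage antibodies and others that included c-Kit, Sca-1, CD127, CD34 and CD16/32, but no gate for a single population, no age or sex, and no statement that the 2 libraries of 1 label are from separate mice. The p-values therefore reflect library-to-library spread, which may be technical only. In bulk samples such as these, fewer cells of a type and less RNA per cell cannot be told apart. The labels name no treatment, and all groups share the wild-type genotype.

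H/ACA snoRNAs fold into a pair of hairpins joined by a hinge that carries the H box, with an ACA triplet close to the 3′ end. Each assembles with dyskerin, Nop10, Nhp2 and Gar1, and a pocket in a hairpin pairs with ribosomal RNA on both sides of the uridine that dyskerin turns into pseudouridine. Vertebrate members are mostly cut from introns of host genes after splicing, so that a host can carry several of them. Loss of dyskerin function causes bone marrow failure in people, which is one reason the class is of interest in blood cells. By the targets of their human namesakes, 12 members belong to a list of 28S rRNA guides and 8 to a list of 18S rRNA guides, and Snora5c, Snora15 and Snora47 are in neither.

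Printed below are 6 examples, not all, of the members that passed in a comparison of populations. They are DNA letters from the GENCODE transcripts, 5′ to 3′ on the coding strand, and capitals mark a central H box match (ANANNA, nearest to the middle) and an ACA exactly 3 bases from the end. Snora26 (chr5:74093530-74093650, plus strand) lies in Dancr, Snora57 (chr19:8888538-8888685, minus strand) has no host on its strand, and Snora30 (chr7:127527874-127528003, plus strand) lies in an intron of Srcap. Snora28 (chr12:111540941-111541067, plus strand) lies in Eif5, and Snora44 (chr4:132309941-132310069) and Snora61 (chr4:132310240-132310369) lie on the plus strand in Snhg12. All coordinates are GRCm38. Snora28 and Snora44 show no ACA at that position in the annotated sequence.
Snora26: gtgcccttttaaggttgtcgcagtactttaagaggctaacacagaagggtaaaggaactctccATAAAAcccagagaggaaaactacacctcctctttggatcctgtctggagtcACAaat
Snora57: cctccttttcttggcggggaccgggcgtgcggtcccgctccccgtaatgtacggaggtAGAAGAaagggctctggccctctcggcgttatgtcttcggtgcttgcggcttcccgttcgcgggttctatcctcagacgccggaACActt
Snora30: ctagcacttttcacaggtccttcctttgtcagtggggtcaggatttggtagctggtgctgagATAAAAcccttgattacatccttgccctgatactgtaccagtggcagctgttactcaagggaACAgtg
Snora28: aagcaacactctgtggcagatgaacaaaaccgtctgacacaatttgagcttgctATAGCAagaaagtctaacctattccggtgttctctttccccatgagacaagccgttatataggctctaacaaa
Snora44: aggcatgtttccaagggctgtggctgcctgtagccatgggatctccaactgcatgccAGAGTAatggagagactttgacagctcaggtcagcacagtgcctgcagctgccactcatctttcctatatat
Snora61: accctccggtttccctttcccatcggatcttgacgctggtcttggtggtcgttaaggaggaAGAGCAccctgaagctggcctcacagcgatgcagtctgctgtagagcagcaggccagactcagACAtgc

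The boxes, which the rule did not use, were found in most members. The ACA stood exactly 3 bases from the end in 18 of 23 members (78.3%), a match to the H box on the transcript strand lay between 40% and 60% of the length in 20 (87.0%), and both were present in 16 (69.6%). Among 84 listed C/D snoRNAs (names starting with Snord), which carry other boxes and guide methylation, 0 had the ACA there and 17 (20.2%) had the H match. Of 1617 other annotated small RNAs of the same length range, 14.7% had the ACA there, 58.2% had the H match and 12.6% had both. The H match alone was thus common at this length. A match describes these letters only.

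Host genes were found for 21 members. In 9 of them the snoRNA was intronic to every annotated host transcript. In 9 it lay inside an exon of some transcript: Snora9, Snora24, Snora26, Snora28, Snora44, Snora61, Snora74a and both Snora16a intervals. In 3 it was partly exonic (Snora2b, Snora5c and Snora15). Reads of host RNA that retains the sequence could be counted with these snoRNAs, and their part in the results was not tested. Snhg12, a noncoding host, holds 4 members: Snora61, Snora44 and 2 nested Snora16a intervals of 137 and 136 bases. Kansl2, which encodes a subunit of histone acetyltransferase complexes, holds Snora2b and Snora34. Similar annotated copies (at least 90% identity over at least 80% of the member) were found for 13 members, and 16 had such a copy or an overlapping interval. Reads of these members are uncertain in origin, because how reads that match several places were treated is not given in the sources used here.

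Total counts per library ran from 8197458 (CMP library 1) to 41799906 (CLP library 2), and 89.0% to 93.2% of the values in a library were even, so a read pair may have added 2. The nearest library over all intervals was the partner for CLP, CMP, B, T and Myeloid, whereas each GMP, MEP and Erythroid library lay nearest to a library of another population. Marker miRNAs followed the labels in part. Mir150, of mature lymphocytes, was highest in T (272 ± 18.2 CPM, SD, n = 2) and B (81.8 ± 10.4 CPM), and Mir223, of the granulocyte and monocyte lineage, in Myeloid (921 ± 36.3 CPM), with Erythroid next (443 ± 207 CPM). Mir451a, an erythroid miRNA, stood at 152 ± 39.7 CPM in MEP and 147 ± 46.9 CPM in Erythroid but also at 127 ± 6.47 CPM in CLP, while Mir144, which shares its precursor transcript, stayed at or below 4.59 ± 3.12 CPM (MEP). Mir126a, of stem and progenitor cells, did not set the progenitors apart. It was highest in CMP (18.2 ± 0.769 CPM), with T next (12.5 ± 0.754 CPM). Myeloid (9.69 ± 2.33 CPM), MEP (9.36 ± 5.97), GMP (8.70 ± 6.53) and CLP (7.04 ± 1.34) followed. Erythroid (6.86 ± 5.45 CPM) and B (5.60 ± 1.37) were lowest. Within GMP, MEP and Erythroid the libraries differed in the share of counts on miRNAs, which was 1.40% in GMP library 1, 1.33% in MEP library 2 and 1.41% in Erythroid library 1 and 2.33%, 2.17% and 2.62% in their partners. The part of these libraries and markers in the results below was not tested beyond the fits without those 3 populations.

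Levels are counts per 1000000 (CPM) over library sizes scaled by the trimmed mean of M values (TMM). Over the 16 libraries the members summed to between 330.4 and 520.1 CPM. The sum was highest in MEP (502 ± 26.0 CPM, SD, n = 2) and GMP (468 ± 22.3 CPM) and lowest in T (336 ± 8.24 CPM), with CLP at 376 ± 10.96, CMP at 384 ± 15.6, B at 396 ± 4.79, Myeloid at 400.2 ± 2.09 and Erythroid at 405 ± 34.6 CPM. As a share of the unscaled counts they made up 0.0265% ± 0.000452 in T, 0.0327% ± 0.000697 in B, 0.0413% ± 0.00114 in CLP, 0.0444% ± 0.000865 in CMP and 0.0513% ± 0.000811 in MEP, with Erythroid, Myeloid and GMP at 0.0397%, 0.0455% and 0.0497%. B thus lay below CLP and CMP on this scale and above both in scaled CPM. A few members carried most of this RNA: Snora61 gave 29.8% of all member counts, Snora57 17.8%, Snora28 16.4% and Snora9 10.4%. Per 100 bases, Snora61 had a mean of 95.9 CPM, Snora28 52.9, Snora57 48.6 and Snora9 30.7, and Snora2b had 0.307. Without this division Snora57 (71.9 CPM) lay above Snora28 (67.2 CPM), so the order of these 2 depends on the scale. Whether reads of these size-selected libraries rise with length was not tested.

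**Figure D1:**
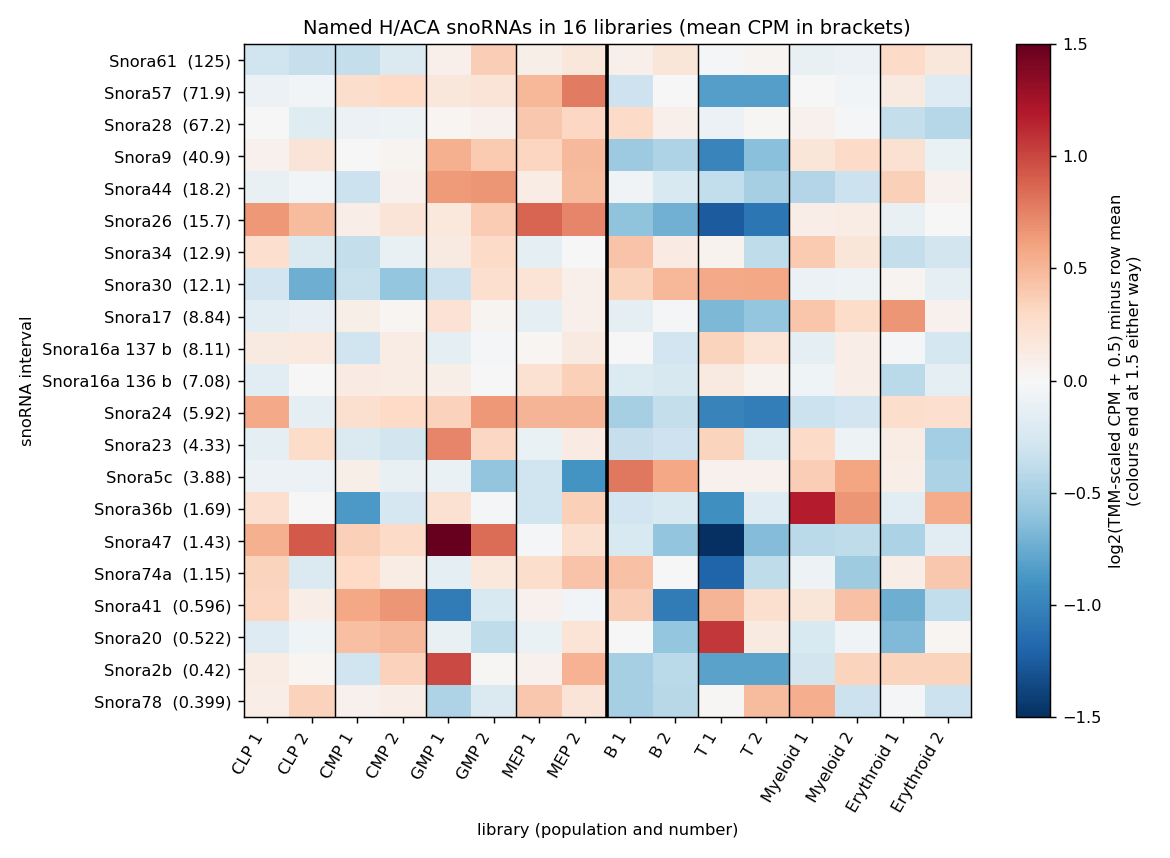
Relative level of each of the 21 tested members (rows, by falling mean CPM, given in brackets) in each of the 16 libraries (columns, the 4 progenitor populations left of the thick line). Colour is log2(TMM-scaled CPM + 0.5) minus the row mean, with colours ending at 1.5 in either direction. Snora26, Snora9 and Snora57 are low in both T libraries, Snora30 is high there, and Snora44 is high in both GMP libraries.

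The first question was whether members varied among the 8 populations at all. In edgeR's quasi-likelihood test, with p-values adjusted by Benjamini-Hochberg over 749 tested intervals, 12 of 21 members (57.1%) did so at an adjusted p under 0.05, beside 61.1% of all intervals tested. Of the other named H/ACA snoRNAs, 10 of 17 passed (58.8%), and of the C/D snoRNAs 75 of 81 (92.6%). The members that passed were 6 of 11 tested on the 28S list and 4 of 8 on the 18S list, with Snora5c and Snora47. The smallest adjusted p belonged to Snora26 (6.78e-06), Snora57 (0.000186), Snora9 (0.000286), Snora24 (0.00133), Snora44 (0.00245) and Snora61 (0.00344). Of the 6 tested members with neither a similar copy nor an overlapping interval, 3 passed.

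MEP was the population with the highest mean for 7 tested members, GMP for 5 and T for 3. The lowest mean was in T for 9 members and in Erythroid for 5. A matching tally over all tested intervals was not made, so these counts are not read as a trait of the members. They include members near the floor, such as Snora78 at a mean of 0.399 CPM, and both nested Snora16a intervals. Within a population the median absolute log2 ratio between the 2 libraries over tested members ran from 0.0815 in CMP to 0.299 in Erythroid.

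Snora26 showed the clearest pattern of the 28S list. Its libraries read 23.0 and 20.4 CPM in CLP, 15.6 and 16.6 in CMP, 16.2 and 19.0 in GMP, 27.0 and 24.4 in MEP, 9.37 and 8.60 in B, 5.81 and 6.61 in T, 15.6 and 15.8 in Myeloid, and 13.4 and 14.5 in Erythroid. Both MEP libraries lay above all others, both T libraries below all others, and the progenitor and mature sides overlapped only through CMP library 1, whose value lay just below those of Myeloid. A similar interval, Gm24233, shares 90.8% identity and drew 12545 counts against 5417 for Snora26. In contrast to Snora26 its log2 difference between progenitors and mature cells was 0.05 ± 0.06 (SE; edgeR adjusted p = 0.523).

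Snora9, hosted by the noncoding Snhg15, followed a like course at a higher level. It read 41.0 and 45.0 CPM in CLP, 38.9 and 40.4 in CMP, 57.1 and 51.5 in GMP, 49.3 and 55.0 in MEP, 26.7 and 28.5 in B, 19.6 and 25.3 in T, 44.5 and 48.1 in Myeloid, and 46.1 and 36.7 in Erythroid. All B and T libraries were below every other library, and the highest were in GMP and MEP.

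Snora30, a 28S guide by its namesake, ran the other way. Its libraries read 9.53 and 6.86 CPM in CLP, 9.16 and 7.65 in CMP, 9.26 and 14.1 in GMP, 13.6 and 12.4 in MEP, 14.9 and 16.7 in B, 17.6 and 17.8 in T, 10.9 and 11.04 in Myeloid, and 12.1 and 10.5 in Erythroid. The T libraries were the highest of all and B came next, so that the lymphoid cells that were low for Snora26 and Snora9 were high for Snora30. The GMP libraries were far apart for this member.

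Snora61, the most abundant member, varied little. It read 100.2 and 97.1 CPM in CLP, 96.4 and 106 in CMP, 130 and 159 in GMP, 131 and 139 in MEP, 130 and 140 in B, 121 and 127 in T, 114 and 116 in Myeloid, and 151 and 139 in Erythroid. The highest population mean, in Erythroid, was 1.47 times the lowest, in CLP, whereas for Snora26 that ratio was 4.14. Snora34, also on the 28S list and intronic in Kansl2, ranged from a mean of 10.1 ± 0.459 CPM in Erythroid to 15.7 ± 1.71 CPM in Myeloid and did not pass the test over 8 populations (adjusted p = 0.105, edgeR).

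Among the 18S guides, Snora57 stood out by its low level in T cells and its high level in MEP. The libraries read 64.9 and 67.3 CPM in CLP, 83.1 and 85.6 in CMP, 77.8 and 79.1 in GMP, 98.0 and 119 in MEP, 55.6 and 69.7 in B, 38.7 and 38.8 in T, 69.4 and 67.1 in Myeloid, and 75.8 and 60.7 in Erythroid. Both T libraries lay below and both MEP libraries above the other 14. Its copy Gm26132, at 95.9% identity, drew 1240 counts against 23173. Like Snora57, the copy was higher in progenitors than in mature cells (0.54 ± 0.16, SE; edgeR adjusted p = 0.0159), so reads of the pair may be shared. Between MEP and Erythroid (0.451) and between B and T (0.585) the copy did not pass.

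Snora28 and Snora44 peaked in different progenitors. Snora28 read 67.0 and 58.6 CPM in CLP, 62.3 and 63.2 in CMP, 68.0 and 69.3 in GMP, 88.3 and 82.5 in MEP, 81.1 and 70.1 in B, 62.4 and 67.4 in T, 69.5 and 64.9 in Myeloid, and 51.6 and 49.3 in Erythroid. It was thus highest in both MEP libraries and lowest in both Erythroid libraries. Snora44 read 16.3 and 17.0 CPM in CLP, 13.95 and 18.4 in CMP, 27.6 and 28.2 in GMP, 19.1 and 24.6 in MEP, 17.0 and 15.0 in B, 13.6 and 12.4 in T, 12.8 and 13.97 in Myeloid, and 22.8 and 18.4 in Erythroid. Both GMP libraries exceeded every other library, and those of T and Myeloid were among the lowest.

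**Figure D2:**
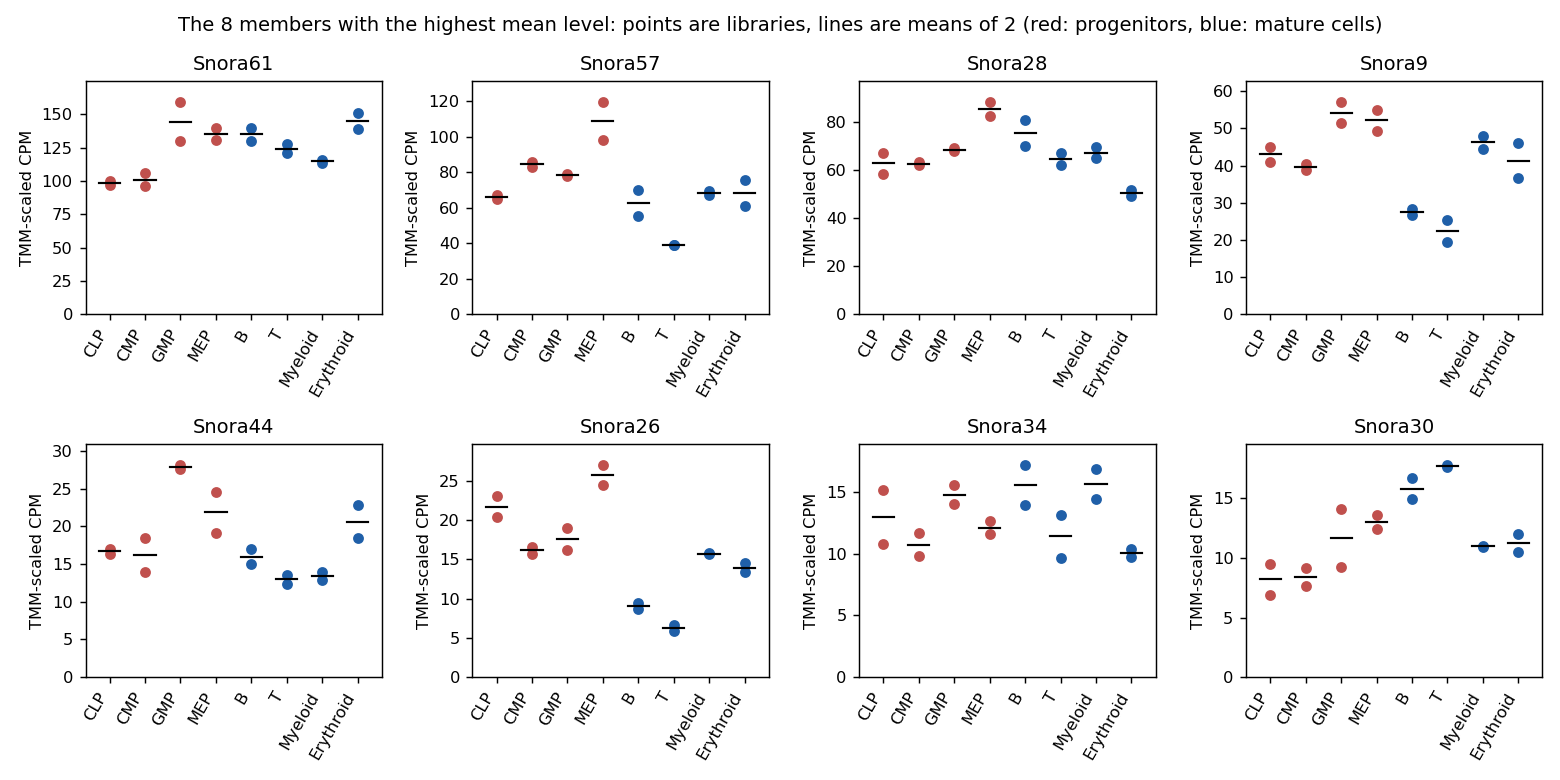
TMM-scaled CPM (vertical axes, from 0) of the 8 members with the highest mean, by population. Points are libraries and lines are means of 2 libraries, red for progenitors and blue for mature cells. Population means of Snora26 run from 25.7 CPM in MEP to 6.21 CPM in T, and Snora61 stays between 98.7 and 145 CPM.

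A member was called highest in 1 population when it exceeded the mean of the other 7 in the edgeR test and both libraries stood above the other 14. This held for 7 members, beside 41.1% of all intervals tested. MEP held Snora26 (0.95 ± 0.10 on the log2 scale, SE; adjusted p = 4.7e-05), Snora57 (0.74 ± 0.10; 0.000268) and Snora28 (0.41 ± 0.08; 0.00247), and also the 136-base Snora16a interval (0.35 ± 0.12; 0.0488). The 137-base interval around it had its highest mean in T (9.80 ± 0.655 CPM, SD, n = 2), with MEP at 8.55 ± 0.494 CPM. Counts of the nested pair, summed after the data were seen, did not pass over the 8 populations (adjusted p = 0.140, edgeR). GMP held Snora44 (0.75 ± 0.13; 0.00116), T held Snora30 (0.68 ± 0.16; 0.00392) and Myeloid held Snora36b (1.28 ± 0.31; 0.00962). Snora36b, an 18S guide by its namesake, read 4.13 and 2.73 CPM in Myeloid and between 0.581 and 2.50 CPM elsewhere. Without Myeloid library 1 the count of such members was 4.

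The progenitor and mature sides were compared next, each as the mean of 4 populations, since the design text of the series sets these against each other. The log2 difference of Snora26, higher in progenitors, was 0.92 ± 0.07 (SE; edgeR adjusted p = 1.21e-06), that of Snora57 0.52 ± 0.07 (9.6e-05), that of Snora9 0.51 ± 0.08 (0.000204) and that of Snora44 0.38 ± 0.09 (0.00439). Snora30 was lower in progenitors, at -0.44 ± 0.11 (adjusted p = 0.00645). In all, 9 of 21 members passed (42.9%), 7 higher and 2 lower in progenitors, beside 49.8% of all intervals tested, of which 26.7% were higher and 23.1% lower. The median difference over tested members was 0.20, against 0.07 over all intervals.

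For Snora26 the 8 progenitor libraries ran from 15.6 to 27.0 CPM with a median of 19.7, and the 8 mature libraries from 5.81 to 15.8 with a median of 11.4. Snora57 ran from 64.9 to 119 CPM (median 81.1) in progenitors and from 38.7 to 75.8 (median 63.9) in mature cells. Snora30 ran from 6.86 to 14.1 CPM (median 9.40) in progenitors and from 10.5 to 17.8 (median 13.5) in mature cells. The sides overlapped for each of these members.

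The other 4 calls, named after their values were seen, were of members under 10 CPM. Snora24, an 18S guide by its namesake that lies in the noncoding Snhg8, was higher by 0.84 ± 0.12 (adjusted p = 0.000151, edgeR), with 7.44 CPM in progenitors against 4.41 in mature cells. Snora47, intronic in Zbed3, was higher by 1.65 ± 0.32 (0.00116), or 3.02 without T library 2, which leaves T at 0 counts, and was the member whose sides did not overlap, as was so in that direction for 3.2% of all intervals. Snora5c was lower at -0.58 ± 0.15 (0.00824), and its copy Gm23346, 98.5% identical, was lower as well (-0.69 ± 0.20; 0.0144), so that reads of the pair may be shared. Snora2b passed at an adjusted p of 0.00963 on 144 counts in all, with 0 counts in both T libraries and 2 in each B library, and no fold is given for it.

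Beside the 49.8% of all intervals, the 28S list had 4 of 11 tested members (36.4%) past the threshold (3 higher, Snora26, Snora9 and Snora2b, and 1 lower, Snora30), and the 18S list 3 of 8 (37.5%), all higher (Snora57, Snora24 and Snora44). The rest of the named H/ACA snoRNAs had 9 of 17 past it (52.9%) and the C/D snoRNAs 59 of 81 (72.8%). Snora61 (-0.13 ± 0.05; adjusted p = 0.0647, edgeR), Snora28 (0.12 ± 0.05; 0.0926) and Snora34 (-0.04 ± 0.11; 0.769) did not pass.

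Of the scalings tried, library totals moved the count of members that were higher. With RLE size factors, DESeq2 or snoRNA and scaRNA intervals alone, 7 members were higher, as with TMM factors, and 3 lower. The shares of all intervals in these fits were 24%, 25.4% and 29% higher and 24.6%, 26% and 33% lower. With library totals in place of TMM factors, the median over all intervals moved from 0.07 to 0.30 (309 intervals higher and 107 lower), 12 members were higher and 0 lower, and Snora30 (-0.20; adjusted p = 0.154) and Snora5c (-0.35; 0.0732) were no longer past the threshold. With the 8 populations as units in place of 16 libraries, 0 members passed, the smallest adjusted p was 0.0614 and 4 had an unadjusted p under 0.05 (edgeR), with 21 intervals passing of all. Without the GMP, MEP and Erythroid libraries 10 members passed, 7 higher and 3 lower, beside 60.4% of all intervals, and Snora26 differed by 0.97. Leaving out T library 2 ended the call of Snora44 (0.27; adjusted p = 0.0641).

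**Figure D3:**
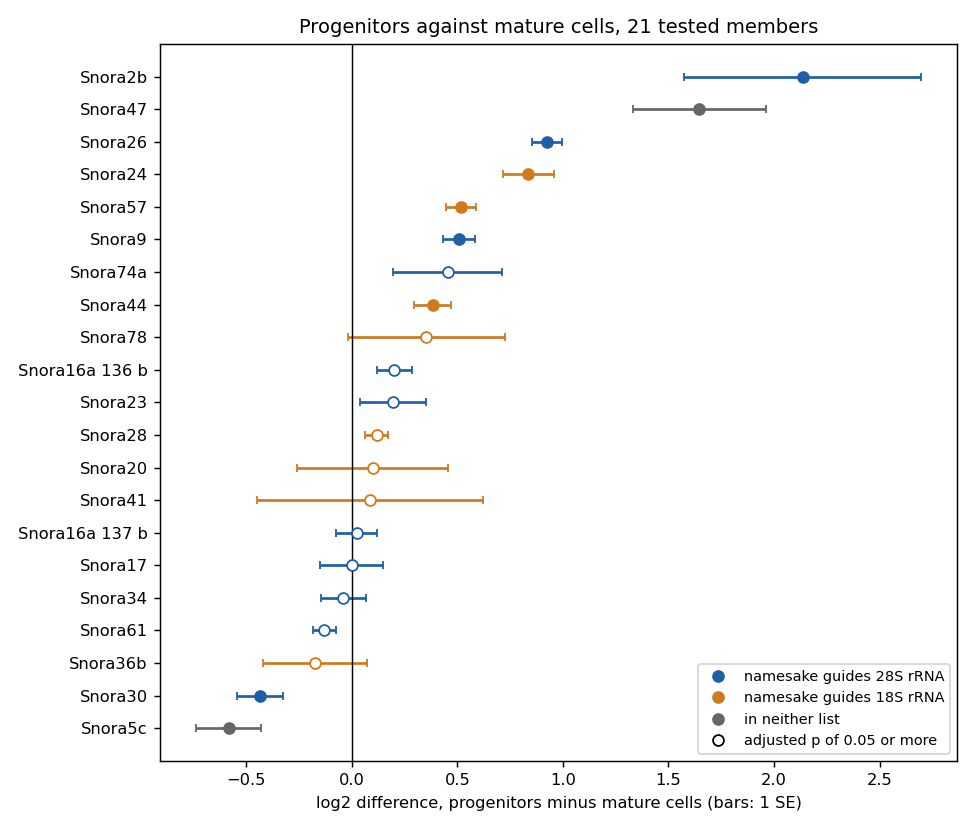
Log2 difference between progenitors and mature cells (horizontal axis, bars 1 SE) for the 21 tested members, coloured by the rRNA that the human namesake guides. Filled points passed at an adjusted p under 0.05. Snora26 at 0.92, Snora57 at 0.52 and Snora9 at 0.51 have short bars, whereas Snora2b, with 144 counts in all, has a long one.

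Within the lymphoid branch, CLP was compared with the mean of B and T cells. Snora26 was higher in CLP by 1.54 ± 0.12 on the log2 scale (adjusted p = 1.31e-06, edgeR), at 21.7 ± 1.89 CPM (SD, n = 2) against 8.98 ± 0.542 in B and 6.21 ± 0.565 in T. Snora9 was higher by 0.79 ± 0.13 (0.000447), at 43.0 ± 2.82 CPM against 27.6 ± 1.26 and 22.4 ± 4.05. Snora30 was lower in CLP, at -1.04 ± 0.20 (0.00132), with 8.20 ± 1.89 CPM against 15.8 ± 1.27 and 17.7 ± 0.134. For these 3 members no library of CLP fell within the range of B and T, as held for 26.4% of all intervals with CLP higher and 21.8% with CLP lower.

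Altogether 8 of 21 members passed (38.1%), 6 higher and 2 lower in CLP, beside 43.3% of all intervals, 25.2% higher and 18% lower. Snora61 was lower in CLP at -0.39 ± 0.09 (adjusted p = 0.0063), also without overlap, but with library totals its difference was 0.06 (adjusted p = 0.608), so its direction depends on the scaling. Leaving out CLP library 2, B library 2 or T library 1 ended this call, with adjusted p of 0.114, 0.0747 and 0.0661, as did dropping the filter on low counts (0.366). Snora57 was higher at 0.42 ± 0.12 (0.0149) with overlapping libraries, and leaving out CLP library 1, CLP library 2, B library 1 or T library 2 ended its call (0.139, 0.0876, 0.1004 and 0.0952), as did RLE size factors (0.0619).

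Snora24 (1.08 ± 0.20; adjusted p = 0.00128, edgeR), Snora47 (2.20 ± 0.52; 0.00554) and Snora2b (0.0137) were the remaining members higher in CLP. Snora47 had 0 counts in T library 1 and 8 in T library 2, so the size of its difference is uncertain: it was 1.88 without the former, and without the latter T stood at 0 counts. Snora2b had 10 and 18 counts in CLP, 2 and 2 in B and 0 and 0 in T, where a floor of 3 counts stands at 0.291 CPM in T library 1 and 0.216 CPM in T library 2. The call of Snora24 ended without CLP library 1 (0.56; 0.0674), which lowered the count of members to 5, and that of Snora2b without CLP library 1 (0.0559) or T library 2 (0.0523). With library totals 13 members were higher in CLP and 1 lower, as the median of all intervals moved from 0.13 to 0.58 (312 intervals higher and 59 lower), while with snoRNA and scaRNA intervals alone 79 intervals were higher and 94 lower with 6 members higher and 2 lower.

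Between the mature lymphoid populations, Snora57 was higher in B than in T by 0.69 ± 0.14 (adjusted p = 0.00385), with 62.7 ± 9.996 CPM in B and 38.8 ± 0.0384 in T, and Snora26 by 0.53 ± 0.15 (0.0215). These were 2 of 21 members (9.52%), beside 28.2% of all intervals (18.7% higher and 9.48% lower in B). The libraries of B and T did not overlap for either, as held upward for 33.2% of all intervals. The count was 9 without the GMP, MEP and Erythroid populations and 10 without library 1 of each of them, all higher in B, while the share of all intervals rose to 46.5% and 41.6%. On the B and T libraries alone 1 member passed, beside 49.2% of all intervals. With snoRNA and scaRNA intervals alone the balance turned: 1 member was higher in B and 2, the Snora16a intervals of 137 and 136 bases, were lower (-0.63 and -0.54; adjusted p = 0.0168 and 0.0364, edgeR), beside 17.8% of intervals higher and 20.8% lower. The call of Snora26 ended in 7 of 27 alternatives, among them without CLP library 1, B library 1, T library 1 or T library 2 (0.0526, 0.209, 0.0562 and 0.0838), and without B library 1 the count was 1.

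In the granulocyte-monocyte branch, Snora44 was higher in GMP than in Myeloid cells by 1.06 ± 0.18 on the log2 scale (adjusted p = 0.00142, edgeR), with 27.9 ± 0.366 CPM (SD, n = 2) against 13.4 ± 0.797. Snora61, from the same host, was higher by 0.33 ± 0.11 (0.0365), at 144 ± 20.6 CPM against 115 ± 1.61. The libraries of GMP and Myeloid did not overlap for either, as held upward for 31.6% of all intervals. Snora24 (0.88 ± 0.24; 0.0163) and Snora47 (2.12 ± 0.59; 0.0183) were higher as well, and Snora5c was lower at -0.92 ± 0.30 (0.0398). Gm23346, the copy of Snora5c, was lower too (-1.33 ± 0.41; edgeR adjusted p = 0.0283).

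These were 5 of 21 members (23.8%), 4 higher and 1 lower in GMP, beside 31.8% of all intervals (16.3% higher and 15.5% lower). With RLE size factors 3 were higher and 0 lower, beside 14.2% and 13.5% of all intervals. The call of Snora44 held in all 26 alternatives run. That of Snora61 ended in 16 of 26, among them 11 of the 16 fits that left out a library, and that of Snora5c in 15 of 25, among them 12 of those 16, with adjusted p up to 0.497 and 0.271. Leaving out GMP library 2 gave a count of 2, leaving out Myeloid library 1 or library 2 gave 1, and leaving out any 1 library of CLP, CMP, B or T gave 3. The call of Snora24 ended in 5 of 26, among them without GMP library 2 (0.0638), Myeloid library 1 (0.0756) or Myeloid library 2 (0.0709), and that of Snora47 without GMP library 1 (0.119), Myeloid library 1 (0.0802) or Myeloid library 2 (0.0987).

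In the erythroid branch, 4 members were higher in MEP than in Erythroid cells and 0 lower. Without Erythroid library 2, 2 were higher and Snora17 was lower (-0.73; adjusted p = 0.0435, edgeR). Snora28 differed by 0.76 ± 0.11 on the log2 scale (adjusted p = 0.00128, edgeR), with 85.4 ± 4.12 CPM (SD, n = 2) in MEP against 50.4 ± 1.65 in Erythroid. Snora26 differed by 0.89 ± 0.14 (0.00297), at 25.7 ± 1.81 CPM against 13.9 ± 0.770, and Snora57 by 0.67 ± 0.14 (0.0109), at 109 ± 15.1 CPM against 68.3 ± 10.7. The libraries of MEP and Erythroid did not overlap for these members, and 26.4% of all intervals were higher in MEP without overlap. Gm24233, the interval similar to Snora26, differed by 0.42 ± 0.12 (edgeR adjusted p = 0.0504). Marker miRNAs of white blood cells had larger means in Erythroid than in MEP: Mir223 read 443 ± 207 CPM there and 232 ± 108 CPM in MEP, and Mir142 100.1 ± 61.0 CPM and 30.9 ± 19.8 CPM, and their part in these differences was not tested.

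The fourth was the 136-base Snora16a interval, at 0.60 ± 0.17 (adjusted p = 0.043), while the 137-base interval around it differed by 0.24 ± 0.19 (0.516). When the counts of the nested pair were summed, a fit added after the data were seen, the difference was 0.41 ± 0.14 (0.0948). The 4 calls were 19% of the tested members, beside 9.88% of all intervals (5.47% higher and 4.41% lower). With library totals 69 intervals were higher and 29 lower, with 4 members higher and 0 lower. All 4 ended when the fit held the MEP and Erythroid libraries alone: 0 of 18 members passed (smallest adjusted p 0.124, 3 at an unadjusted p under 0.05, edgeR), as did 0 intervals in all. The call of Snora16a also ended whichever of the 16 libraries was left out (adjusted p up to 0.359 in those fits), that of Snora57 in 7 of those 16 fits, with 0.259 without MEP library 2, and that of Snora26 without the filter on low counts (0.0763). Leaving out CLP library 2, CMP library 1, MEP library 2, B library 2, T library 1 or Myeloid library 1 gave a count of 2.

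**Figure D4:**
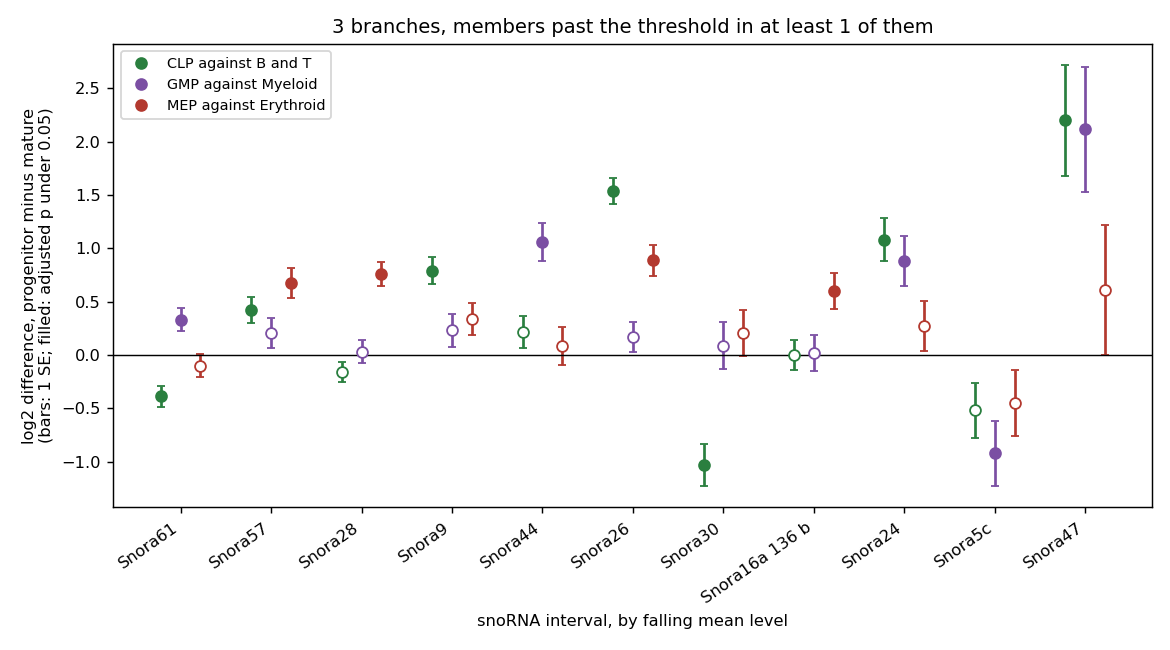
Log2 difference (progenitor minus mature, bars 1 SE) in the lymphoid (green), granulocyte-monocyte (purple) and erythroid (red) branches, for the members with a mean of at least 1 CPM that passed in at least 1 of them. Filled points passed at an adjusted p under 0.05. Snora30 stands at -1.04 in the lymphoid branch beside 0.09 and 0.21, neither past the threshold, in the granulocyte-monocyte and erythroid branches, Snora44 at 1.06 in the granulocyte-monocyte branch, and Snora28 at 0.76 in the erythroid branch.

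The difference between progenitor and mature cells was also tested between branches. It differed for 5 members in at least 1 of the 3 tests (edgeR), beside 29.2% of all intervals. Between the lymphoid and granulocyte-monocyte branches 4 members passed (Snora26, Snora30, Snora44 and Snora61), beside 17.9%, between the lymphoid and erythroid branches 3 (Snora26, Snora28 and Snora30), beside 21.4%, and between the granulocyte-monocyte and erythroid branches 3 (Snora26, Snora28 and Snora44), beside 9.21%. The 3 tests compare the same 3 branch effects, so each difference follows from the other 2. Snora26 was past the threshold in all 3 tests. It differed by 1.54 in the lymphoid, 0.89 in the erythroid and 0.17 ± 0.14 in the granulocyte-monocyte branch (edgeR adjusted p = 0.409 in the last). Its call between the granulocyte-monocyte and erythroid branches (0.0474) ended in 20 of 25 alternatives, among them all 16 that left out a library, and that between the lymphoid and erythroid branches (0.0288) in 6 of 25. Without CLP library 2 or without Myeloid library 1 the count over the 3 tests was 3.

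Small RNAs that share a host were set side by side. Within Snhg12, Snora44 was higher in GMP than in Myeloid by 1.06, Snora61 by 0.33 and the Snora16a intervals differed by -0.08 ± 0.19 (137 bases; adjusted p = 0.811, edgeR) and 0.02 ± 0.16 (136 bases; 0.966). The C/D snoRNA Snord99 of the same host, at a mean of 1316 CPM, was lower in GMP at -0.49 ± 0.07 (0.0003). Over the 8 population means the log2 levels of Snora44 and Snora61 had a Pearson correlation of 0.56, a description over populations that share their libraries. Differences between members of 1 host were not tested against each other.

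Within Kansl2, Snora34 differed by -0.04 ± 0.11 between progenitors and mature cells, whereas Mir1291, an interval that overlaps it, was lower in progenitors at -0.99 ± 0.14 (adjusted p = 0.000133, edgeR). Mir1291 was also lower in CLP (-0.73 ± 0.24; 0.0301), GMP (-1.24 ± 0.28; 0.00616) and MEP (-1.52 ± 0.29; 0.00689) than in the mature cells of each branch. Within Tbrg4, Snora5c was lower in progenitors while Gm24313, a small RNA of the same host, was higher by 1.68 ± 0.11 (3.82e-07) and passed upward in all 3 branches. These neighbours are not members and were named after their values were seen.

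The member profiles most like that of Snora26 over the 8 population means were those of Snora9 (Pearson r of 0.92), Snora24 (0.89) and Snora57 (0.86), and that of Snora30 was the most opposed (-0.70). The median over the 210 pairs of tested members was 0.08, and 93 pairs were negative. These values are descriptions over 8 populations and carry no test.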

How the data were processed

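Each deposited table gives unnormalized read counts by small RNA interval for 1 library. Per the submitters' processing notes, Trimmomatic 0.38, Bowtie2 2.3.4.1 and GRCm38 were used. Libraries were made from Trizol-extracted total RNA and size-selected on a gel, per the labels' protocols. The counter, its annotation and use of strand, and the treatment of multiply matching reads are not given in the sources used here. An interval missing from a table was taken as 0. Intervals were matched by coordinates to GENCODE M21 (1882 of 1885).

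Differences were tested with edgeR 4.0.16 (R 4.3.3; quasi-likelihood, TMM scaling, filterByExpr by population with a minimum count of 10, 1 mean per population over 16 libraries), with Benjamini-Hochberg adjustment over 749 intervals and a threshold of 0.05. This code was tested on simulated data. SE is the log2 difference over the square root of F. Higher and lower are used of members past the threshold. Similar copies were found with blastn 2.17.0. Reads carry no molecular identifiers, so depth gives counting error only.

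Named members were the 8 most abundant, the called members with a mean of at least 10 CPM (up to 8 in each direction by stage, and up to 4 elsewhere where libraries did not overlap), the 6 smallest p over the populations, up to 3 members highest in each population and those sharing a host. Members and lists were chosen with earlier results of these data known. Equal library numbers were not taken to pair samples: 8 of 28 pairs of populations had a correlation of deviations over 0.1, and the lowest was -0.64. Alternatives covered scaling (DESeq2 1.42.0 among them), filters, libraries and intervals.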

Additional observations from a re-analysis of the deposited data

Results flagged for a closer look

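The progenitor-to-mature differences of 5 members differed between branches, each by a test of the difference itself (edgeR, Benjamini-Hochberg over all intervals), beside 29.2% of all intervals in at least 1 of the 3 tests. The lymphoid difference (CLP minus the mean of B and T) exceeded that of the granulocyte-monocyte branch (GMP minus Myeloid) for Snora26, by a log2 value of 1.37 ± 0.19 (SE; edgeR adjusted p = 0.000626), and it was the smaller one for Snora30 (-1.12 ± 0.29; 0.0205), Snora44 (-0.84 ± 0.24; 0.0315) and Snora61 (-0.72 ± 0.14; 0.00505). Against the erythroid branch (MEP minus Erythroid) the lymphoid difference was larger for Snora26 (0.65 ± 0.19; 0.0288) and smaller for Snora28 (-0.92 ± 0.15; 0.000945) and Snora30 (-1.24 ± 0.29; 0.0103). The granulocyte-monocyte difference was smaller than the erythroid one for Snora26 (-0.72 ± 0.20; 0.0474) and Snora28 (-0.73 ± 0.15; 0.0122) and larger for Snora44 (0.97 ± 0.25; 0.0344).

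Of these 10 calls, that of Snora26 between the lymphoid and granulocyte-monocyte branches held in all 25 alternatives run. The other calls between these branches ended in 15 of 25 for Snora44, 8 of 25 for Snora30 and 4 of 25 for Snora61, and with library totals their values were -0.30, -0.58 and -0.18 (adjusted p = 0.336, 0.163 and 0.352). The call of Snora28 between the lymphoid and erythroid branches ended in 1 of 26, without the filter on low counts, that of Snora30 in 3 of 25, among them leaving out CLP library 2, and that of Snora26 in 6 of 25, among them leaving out CLP library 1, MEP library 2, T library 2 or Erythroid library 2. The granulocyte-monocyte calls against the erythroid branch ended in 20 of 25 for Snora26, 12 of 26 for Snora28 and 16 of 25 for Snora44. The branches share no libraries, but the tests share 1 estimate of the spread.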

How the results depend on the processing

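Of the 28 calls of members in the 5 comparisons of sides, 6 held in every alternative run and 1 reversed, Snora61 in CLP against B and T (0.0596 with library totals). Leaving out 1 library gave 9 to 12 members for the test over 8 populations, 9 to 10 for progenitors against mature cells, 5 to 8 for CLP against B and T, 1 to 5 for GMP against Myeloid, 2 to 3 for MEP against Erythroid (0 to 1 of them lower), 1 to 3 for B against T, 4 to 8 for members highest in 1 population and 3 to 7 for differences between branches. Without members that have a similar copy or an overlapping interval, which leaves 6 tested, the counts were 3, 2, 2, 2, 1, 0, 1 and 1 in that order (3 of the 6 had an unadjusted p under 0.05 in B against T). With a mean of at least 10 CPM they were 7 over the populations (89.1% of all intervals passed), 2 in GMP against Myeloid (50%) and 4 highest in 1 population. Library totals gave 14 in CLP against B and T (49.5% of all intervals passed), 4 in B against T (31%) and 9 between branches. In the 3 tests between branches, in the order given above, 35.2%, 28.8% and 12.1% of all intervals then passed. RLE size factors gave 3 in GMP against Myeloid (27.6% of all intervals) and 2 in MEP against Erythroid (5.21%). With no filter on low counts, 2 members passed in GMP against Myeloid, 1 in MEP against Erythroid, 1 in B against T and 1 between branches. The shares of all intervals were 10.6%, 2.6% and 11.1%, and 5.78%, 5.25% and 3.77% in the 3 tests between branches. Fits on the populations of a comparison alone gave 2 in GMP against Myeloid (20% of all intervals), 0 in MEP against Erythroid (0%) and 1 in B against T (49.2%). Without library 1 of GMP, MEP and Erythroid the count was 10 in B against T and 8 between branches, and snoRNA and scaRNA intervals alone gave 11 between branches. In the fit on snoRNA and scaRNA intervals, 39.9%, 42.6% and 29.4% of all its intervals passed in the 3 tests between branches. The main fit had 17.9%, 21.4% and 9.21%. With populations as units, 0 passed between progenitors and mature cells, beside 2.85% of all intervals. Without the GMP, MEP and Erythroid populations, an alternative chosen after seeing the data, B against T gave 9, beside 46.5% of all intervals. The share of all intervals past the threshold moved between most of these fits as well, so a changed count alone is not a trait of the members. The cause of these changes was not tested, apart from the fewer members or libraries in a fit.

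The equal library numbers did not pair the samples: correlations of deviations ran from -0.64 (MEP with Erythroid) to 0.49 (GMP with Erythroid), with -0.51 for GMP with MEP. A replicate block gave 11, 9, 8, 5, 4, 2, 6 and 5 members in the order above and, among the calls between sides and between branches, ended that of Snora26 between the granulocyte-monocyte and erythroid branches (adjusted p = 0.0583). Of all intervals, 59%, 48.7%, 42.9%, 30.2%, 9.35% and 27.9% passed in the first 6 of these tests. With the numbers of MEP and Erythroid crossed as a replicate block within those populations, chosen after seeing the data, 4 members and 110 intervals passed between them. The main fit had 4 members and 74 intervals. Depth limits what can be said of the members under 1 CPM.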
